A study of Mus musculus with 6 samples.

Results

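Interferon-responding lung fibroblasts (FBs) were defined here as FBs that carried RNA of 4 interferon-induced genes. A barcode of a lung library was taken as an FB when it held at least 2000 unique molecular identifiers (UMIs, each standing for 1 captured RNA molecule), no UMI of Ptprc, Pecam1 or Epcam, which mark leukocytes, endothelial cells and epithelial cells, and UMIs of Col1a1, Col1a2 and Pdgfra that summed to at least 3. It was an interferon-responding FB when its UMIs of Ifit1, Ifit3, Isg15 and Rsad2 summed to at least 5. Of 18951 barcodes in 4 lung libraries, 12014 were FBs and 503 of these were interferon-responding. They were set against the 7814 FBs of the same libraries in which the sum was 0, called zero-sum FBs below, and the 3697 FBs with a sum of 1 to 4 were kept apart.

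The cells came from male Pdgfra-GFP reporter mice aged 10 to 14 weeks, in which the Pdgfra locus drives GFP in all groups, controls included. One group received a single oropharyngeal dose of PBS and one a single dose of bleomycin, given as 2 U/kg in the treatment protocol and as 4 U/kg in the treatment label. The other two received 3 weekly doses of PBS, or of bleomycin, where the first and the second dose were 1 U/kg and the third was 0.5 U/kg. Lungs were taken on day 14 after the single or last dose, the GFP+ cells of 3 mice per group were sorted, and each group is 1 library of droplet 3′ RNA counts. With 1 library per condition no single condition can be tested against another, and the only test across conditions sets the bleomycin libraries of both experiments against the PBS libraries of both. The sort was for cells with an active Pdgfra locus, but the libraries also held barcodes that did not pass the FB gate.

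Type I interferons bind the receptor pair Ifnar1 and Ifnar2, whose kinases Jak1 and Tyk2 activate a complex that includes Stat2 and Irf9 and binds interferon-stimulated response elements in promoters. Interferon gamma signals through Ifngr1 and Ifngr2 with Jak1 and Jak2 to a different promoter element, and it is a strong inducer of guanylate-binding proteins, immunity-related GTPases and the antigen presentation genes. Both routes raise overlapping sets of genes. Ifit1 and Ifit3 encode tetratricopeptide proteins that act on viral RNA, Isg15 a ubiquitin-like modifier, and Rsad2 the antiviral enzyme viperin.

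The promoter windows of the 4 genes used to choose the cells each held the core of an interferon-stimulated response element, GAAANNGAAA, read on either strand. The stretches around these matches are shown because they tie the genes that chose the cells to the pathway, and those of Cxcl10 and Gbp2 because both genes are described below. All are from RefSeq on GRCm38.p6 and run 5′ to 3′ along the strand of the gene. Capitals mark the matches, which are written as their reverse complement where they lie on the other strand. The Isg15 stretch, from 103 to 32 bases upstream of the start of transcription, is chr4:156200850-156200921 on the minus strand and holds 3 overlapping matches.
Isg15: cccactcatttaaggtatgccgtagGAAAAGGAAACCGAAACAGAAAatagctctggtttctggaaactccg
The Ifit1 stretch, 129 to 51 bases upstream, is chr19:34640760-34640838 on the plus strand and holds 2.
Ifit1: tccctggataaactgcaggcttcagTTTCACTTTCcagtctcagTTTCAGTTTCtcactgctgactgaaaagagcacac
The Ifit3 stretch, 181 to 88 bases upstream, is chr19:34583348-34583441 on the plus strand and also holds 2.
Ifit3: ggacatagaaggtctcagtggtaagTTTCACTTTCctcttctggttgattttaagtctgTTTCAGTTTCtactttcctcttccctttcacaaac
The Rsad2 stretch, 145 to 86 bases upstream, is chr12:26456538-26456597 on the minus strand and holds 1.
Rsad2: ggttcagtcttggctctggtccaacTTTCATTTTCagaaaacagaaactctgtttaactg
The Cxcl10 stretch, 238 to 179 bases upstream, is chr5:92349068-92349127 on the minus strand.
Cxcl10: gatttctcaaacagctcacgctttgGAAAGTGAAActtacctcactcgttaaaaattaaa
The Gbp2 stretch, 84 to 25 bases upstream, is chr3:142620579-142620638 on the plus strand.
Gbp2: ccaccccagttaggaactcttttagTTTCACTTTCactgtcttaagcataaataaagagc
Over all 32851 windows of the same length, from 250 bases before to 50 after a start, 3.44% held the core. A match describes the letters in the window and not a site that was measured.

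The 4 lung libraries held 7201081 to 68354458 UMIs, and the interferon-responding FBs were the deeper cells in each. Their median was 8255 UMIs against 6841 in zero-sum FBs after single-dose PBS, 15156.5 against 9169 after single-dose bleomycin, 12868 against 9921.5 after repetitive PBS, and 16343 against 6311 after repetitive bleomycin. A sum of at least 5 is reached more easily in a deep cell, so shares were also counted after thinning each cell at random to 2000 UMIs, and levels were also set against zero-sum FBs matched one to one on depth. A sum of 0 in a deep cell is a stricter choice for low levels of the 4 genes than in a shallow cell. Matching on depth is therefore no neutral control for interferon genes. Pairs of lung libraries shared between 0 and 28 barcodes, and none was an interferon-responding FB in both. No doublet caller was run. In the repetitive bleomycin library 17.1% of interferon-responding FBs held over 3 times the library's median FB depth, against 5.44% of its FBs, and the part of doublets in the results was not tested beyond leaving such barcodes out.

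Interferon-responding FBs were present in every lung library, and their share was higher in the bleomycin library of each pair. They made up 9 of 841 FBs after single-dose PBS, or 1.07% (exact Clopper-Pearson 95% interval 0.491 to 2.02%), and 92 of 797 after single-dose bleomycin, or 11.5% (9.41 to 14.0%). After repetitive dosing they were 145 of 5096 FBs with PBS, or 2.85% (2.41 to 3.34%), and 257 of 5280 with bleomycin, or 4.87% (4.30 to 5.48%). The intervals of each pair did not overlap, but they cover counting error only and say nothing of the spread between mice or between preparations.

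The shares moved with the depth of the cells and with the limit. With every FB thinned to 2000 UMIs and the limit lowered to 2 UMIs, the share was 1.90% after single-dose PBS and 6.90% after single-dose bleomycin, and 1.96% and 3.54% in the repetitive pair. The ratio of bleomycin to PBS was 10.8 as counted and 3.63 in this count for the single-dose pair, and 1.71 and 1.81 for the repetitive pair. With a limit of 1 UMI after thinning it was 2.24 and 1.47, and with a limit of 10 and no thinning 15.5 and 2.23. Thinned with the limit kept at 5 UMIs, the ratios were 5.63 and 3.34, on shares of 0.357%, 2.01%, 0.255% and 0.852% in the order of the libraries above. When every barcode with a UMI of a macrophage, lymphocyte, endothelial, alveolar epithelial or neutrophil marker was left out, the shares were 1.02% (4 of 394), 6.25% (12 of 192), 2.93% (114 of 3887) and 4.20% (112 of 2667) in the same order. The intervals were 0.277 to 2.58%, 3.27 to 10.66%, 2.425 to 3.51% and 3.47 to 5.03%, so those of the repetitive pair overlapped. A deep cell is more likely to hold such a UMI. After single-dose bleomycin Sftpc alone was found in 59 of 92 interferon-responding FBs and in 44.9% of zero-sum FBs.

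**Figure D1:**
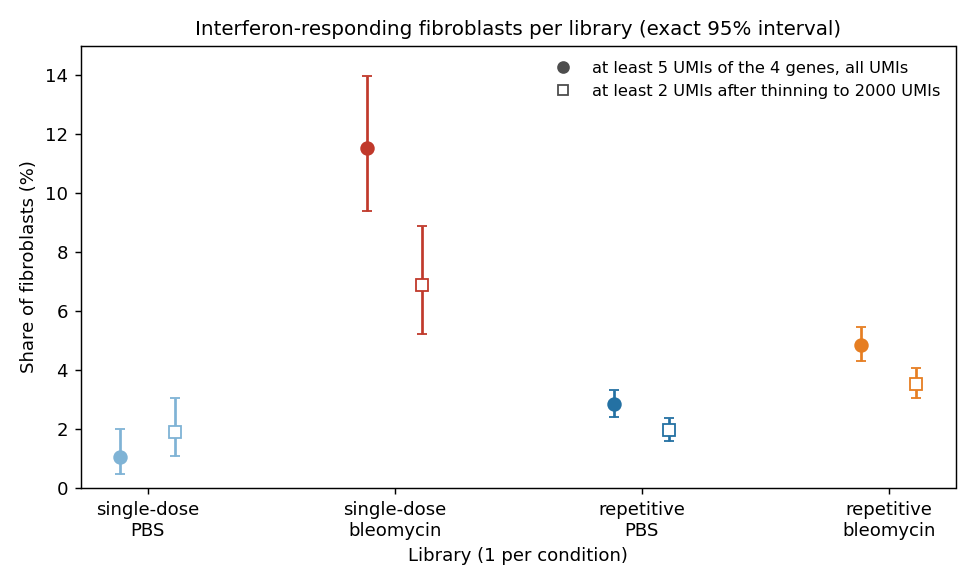
Share of FBs that were interferon-responding in each lung library, as a percent of all FBs with exact 95% intervals, as counted and after thinning each FB to 2000 UMIs with a limit of 2 UMIs. The bleomycin library was above the PBS library of its pair on both counts, from 1.90% to 6.90% and from 1.96% to 3.54% after thinning.

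Most interferon-responding FBs carried several of the 4 genes, and Isg15 was the most widely held. UMIs of all 4 genes were found in 59 cells, of 3 genes in 176, of 2 genes in 186 and of 1 gene in 82, of which 70 held Isg15 alone. The libraries differed in this. After repetitive PBS 27.6% of the cells held 1 gene and 6.21% all 4. The shares were 9.78% and 17.4% after single-dose bleomycin, 12.8% and 12.45% after repetitive bleomycin, and 0% and 22.2% of the 9 cells after single-dose PBS. Isg15 was detected in 100% of the cells after either single-dose treatment, in 81.4% after repetitive PBS and in 96.5% after repetitive bleomycin. Ifit3 was detected in 71.7% to 88.9% of the cells, Ifit1 in 46.9% to 77.8% and Rsad2 in 9.66% to 22.2%. These counts chose the cells and are given as a description. Scaled to 1000000 UMIs of the same cells (CPM), Isg15 stood at 678.5 in the interferon-responding FBs after single-dose PBS, 498 after single-dose bleomycin, 446.7 after repetitive PBS and 562.2 after repetitive bleomycin. Rsad2 was the least abundant of the 4 in every library, at 129.9, 55.6, 28.9 and 66.7 CPM in that order.

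The sum ran from 5, the value of 94 cells, to 334 in 1 cell, with a median of 9. It was at least 10 in 226 cells and at least 50 in 31, of which 20 were in the repetitive bleomycin library. Those 20 cells, 7.78% of the 257 there, held 45.1% of the UMIs of the 4 genes. They held 36.1% of the UMIs of genes that favour interferon gamma, 17.5% of those of the antiviral effectors and 11.3% of those of the class I antigen presentation genes. Cxcl10 and Iigp1, both described below, weigh most in the interferon gamma sum, and Cxcl10 was unevenly spread over cells.

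The values of cells just inside and just outside the limit of 5 are given as a description. Summed over listed antiviral effector genes without the 4 used to choose the cells (65 genes in the single-dose libraries and 63 in the repetitive ones), FBs with a sum of 4 stood at 6984 CPM after single-dose bleomycin and those with a sum of 5 at 7975. After repetitive PBS the pair was 5453 and 5459, and after repetitive bleomycin 5770 and 5525. Zero-sum FBs stood at 5444, 4022 and 4148 CPM in these libraries. At a sum of 50 or more the level was 14880, 20727 and 16792 CPM. Class I genes stood at 6358 CPM at a sum of 4 and 5160 at 5 after single-dose bleomycin, at 2911 and 3259 after repetitive PBS and at 3853 and 3394 after repetitive bleomycin, and gamma-biased genes at 641 and 863, 756.6 and 698.9, and 922.5 and 1052. The 3 lists thus moved in either direction across the limit, and counting error places cells on either side of it.

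**Figure D2:**
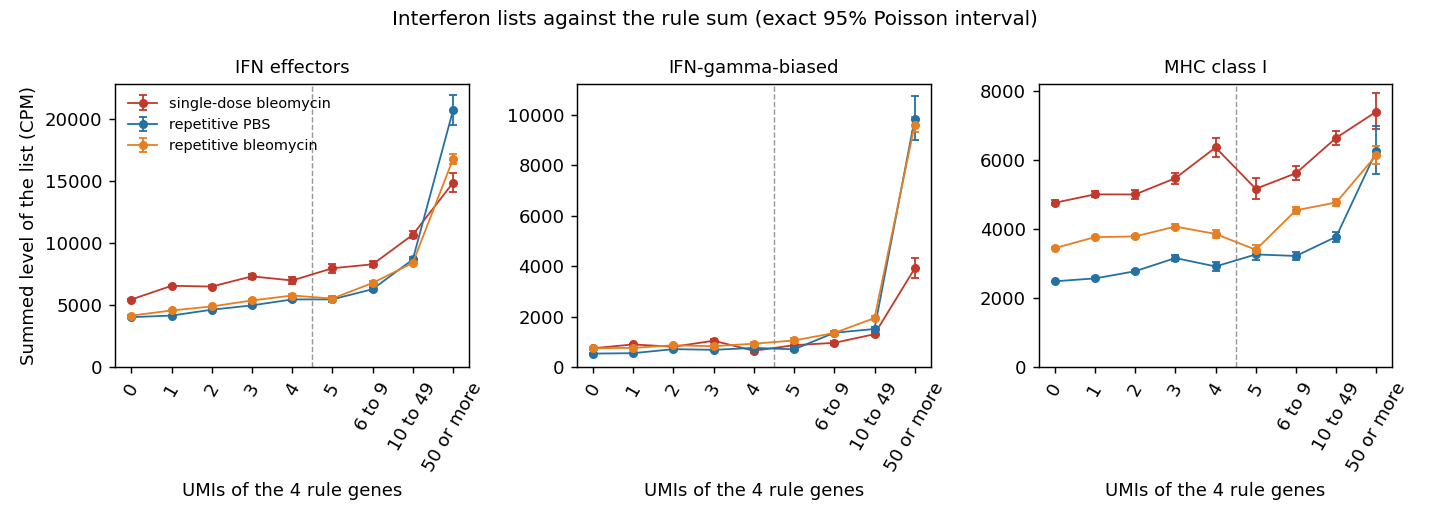
Summed level (CPM, linear axis from 0) of antiviral effectors (IFN effectors), interferon gamma-biased genes and class I antigen presentation genes in FBs binned by their UMIs of the 4 genes that chose the cells (the rule genes), 1 line for each of 3 lung libraries, with exact 95% Poisson intervals that cover counting error only. The dashed line marks the limit of 5. Effectors stood at 4022 to 5444 CPM at a sum of 0 and at 14880 to 20727 CPM at 50 or more, and single-dose PBS, with 9 interferon-responding FBs, is not drawn.

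Cell by cell, the summed effector level was higher in most interferon-responding FBs. A few abundant genes weigh most in this sum, here and in the bins above. After single-dose bleomycin Ifitm3, Ifi27l2a and Ifitm2 held 4709, 2597 and 1526 of the 14139 effector UMIs of interferon-responding FBs. In zero-sum FBs they held 8260, 3516 and 3826 of 21299. The median cell held 9212 CPM of effectors after single-dose bleomycin against 5102 in depth-matched zero-sum FBs, 6543 against 3827 after repetitive PBS, and 7882 against 3961 after repetitive bleomycin. The share of interferon-responding FBs above the 95th percentile of their matched zero-sum FBs was 45.7%, 50.3% and 54.5% in these libraries. The 9 cells of the single-dose PBS library had a median of 10423 CPM against 4200. Summed over cells, effectors were lower in depth-matched than in all zero-sum FBs of every library, so matching widened these gaps. They stood at 5036 against 5444 CPM after single-dose bleomycin, 3899 against 4022 after repetitive PBS and 3902.5 against 4148 after repetitive bleomycin. After single-dose PBS they stood at 4312 against 5286 CPM.

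Counts were then summed over the cells of each class in each library, and interferon-responding and zero-sum FBs were compared by edgeR's quasi-likelihood test with the library as a block and Benjamini-Hochberg adjustment. The fit used 3 libraries, since single-dose PBS had only 9 interferon-responding FBs, and left out the 10 genes used to choose cells. The cells were chosen by 4 genes of the interferon program in the same cells, so genes that vary with those 4 were bound to differ, and an adjusted p here says only that a difference repeated across libraries. Of 10801 genes tested, 156 were higher in interferon-responding FBs (1.44% of the genes tested) and 33 were lower (0.306%). Of the 156, 154 had the same direction in all 3 fitted libraries and 93 had it in all 4 libraries, the single-dose PBS library, which was not fitted, included. Unless another comparison is named, log2 values below are differences between the classes from this fit, and adjusted p-values come from this test. Standard errors were calculated back from the log2 value and the F statistic of the test.

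RNA of the interferons themselves was close to absent from the cells. Of 21 listed interferon genes none had enough counts to be tested, and the 503 cells held 1 UMI of them in all, in the repetitive PBS library. Ifnb1, which encodes interferon beta, had 0 UMIs in every class and library. The counts cover barcodes inside the FB gate only. Other barcodes of the same libraries, and cells outside the sort, were not counted for these genes.

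The receptors and kinases did not separate the classes. None of 8 tested genes of 9 listed passed the test in either direction, and their median log2 difference was -0.00, against -0.01 over all genes tested. Ifnar1 stood at 34.4 CPM in interferon-responding FBs and 40.9 in zero-sum FBs after single-dose bleomycin, at 24.0 and 31.0 after repetitive PBS, and at 45.4 and 43.7 after repetitive bleomycin (log2 difference -0.12, adjusted p = 0.878). Ifnar2 differed by 0.07 (adjusted p = 0.804), Ifngr1 by -0.23 (adjusted p = 0.238) and Jak2, a kinase of the interferon gamma receptor, by 0.39 (adjusted p = 0.144).

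The transcription factors of the pathway were higher, in 5 of 10 tested genes, and none was lower. Irf7, which drives later interferon genes, stood at 136.7 CPM against 22.8 after single-dose bleomycin, 41.6 against 5.22 after repetitive PBS and 68.7 against 8.29 after repetitive bleomycin, and at 144.4 against 9.62 in the 9 cells after single-dose PBS. Each library showed a gap, and the fitted log2 difference was 2.91 ± 0.13 (SE, adjusted p = 1.87e-05), or 7.54-fold. Irf7 was detected in 54.3%, 36.6% and 47.5% of the interferon-responding FBs of the 3 fitted libraries, and in 14.2%, 4.94% and 6.28% of zero-sum FBs. Thinned to 2000 UMIs, the shares were 21.7%, 10.3% and 13.2% against 4.35%, 0.690% and 0.389% in depth-matched zero-sum FBs.

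Stat2 and Irf9, which act in the type I complex, were higher in all 3 fitted libraries. Stat2 stood at 68.0 CPM against 18.4, 52.4 against 22.9 and 71.7 against 28.9, and Irf9 at 50.8 against 21.7, 45.0 against 17.3 and 50.5 against 19.3. Their log2 differences were 1.41 ± 0.13 (adjusted p = 0.000576) and 1.37 ± 0.11 (adjusted p = 0.000185). Irf1, which acts mainly downstream of interferon gamma, was higher by 0.65 ± 0.10 (adjusted p = 0.00914). Irf2, Irf3 and Irf8 differed by 0.10, -0.14 and -0.10 and did not pass the test.

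Sensors of foreign nucleic acid were higher in 4 of 11 tested genes of 15 listed, and all 4 also stand on the effector list below. Lists overlap elsewhere too, as Irf7, Irf9, Stat2 and Usp18 are effectors as well, Irf1, Cxcl9 and Cxcl10 are among the interferon gamma-biased genes, and Nlrc5 is on both that list and the class I list, so counts of different lists do not add up. Zbp1, a sensor of Z-form nucleic acid, stood at 127.1 CPM against 32.7 after single-dose bleomycin, 35.2 against 5.17 after repetitive PBS and 82.0 against 16.9 after repetitive bleomycin (log2 difference 2.32 ± 0.15, adjusted p = 6.24e-05). The helicases that bind viral RNA followed, with Ifih1 (MDA5) higher by 1.59 ± 0.11 (adjusted p = 9.58e-05), Ddx58 (RIG-I) by 1.37 ± 0.11 (adjusted p = 0.000166) and Dhx58 (LGP2) by 2.04 ± 0.29 (adjusted p = 0.00778). Mavs, the adaptor through which RIG-I and MDA5 signal, differed by 0.05 (adjusted p = 0.991).

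Antiviral effectors made up the largest listed group. Of 66 listed, 56 were tested, 47 were higher and none was lower, with a median log2 difference of 1.39. The highest was Ifit3b, at 53.6 CPM against 1.02 after single-dose bleomycin, 84.2 against 1.95 after repetitive PBS and 79.3 against 2.16 after repetitive bleomycin (log2 difference 5.35 ± 0.14, adjusted p = 5.96e-07). Ifit3b is a near copy of Ifit3, which chose the cells, so reads may be split between the pair and its value is uncertain. Oasl1 and Oasl2, members of the oligoadenylate synthetase family, were higher by 4.39 ± 0.44 (adjusted p = 0.00104) and 3.01 ± 0.18 (adjusted p = 6.24e-05). Oasl2 stood at 117.5 CPM against 19.7, 78.3 against 6.38 and 93.9 against 14.0 in the fitted libraries.

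Ifi44, an antiviral protein gene, was near 0 in zero-sum FBs. It stood at 28.2 CPM against 2.30 after single-dose bleomycin, 12.2 against 0.339 after repetitive PBS and 46.0 against 2.57 after repetitive bleomycin, though it had 0 UMIs in the 9 cells of the single-dose PBS library. Its log2 difference was 4.30 ± 0.28 (adjusted p = 6.99e-05). Rtp4 was higher by 2.91 ± 0.19, Cmpk2, the neighbour of Rsad2 that makes nucleoside triphosphates, by 2.84 ± 0.18, and Eif2ak2, the RNA-activated kinase PKR, by 1.70 ± 0.12. The RNF213 ubiquitin ligase gene was higher by 2.14 ± 0.10 (adjusted p = 1.87e-05).

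Some effectors were also abundant in zero-sum FBs. Ifitm3, which blocks fusion of viruses with endosomes, stood at 3235 CPM against 2111 after single-dose bleomycin, 2268 against 1458 after repetitive PBS and 2266 against 1334 after repetitive bleomycin (log2 difference 0.69 ± 0.06, adjusted p = 0.000289). Ifi27l2a was higher by 1.13 ± 0.07 (adjusted p = 6.24e-05) and the virion tether Bst2 by 1.33 ± 0.08 (adjusted p = 6.24e-05). Ifitm2 differed by 0.16 (adjusted p = 0.386).

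**Figure D3:**
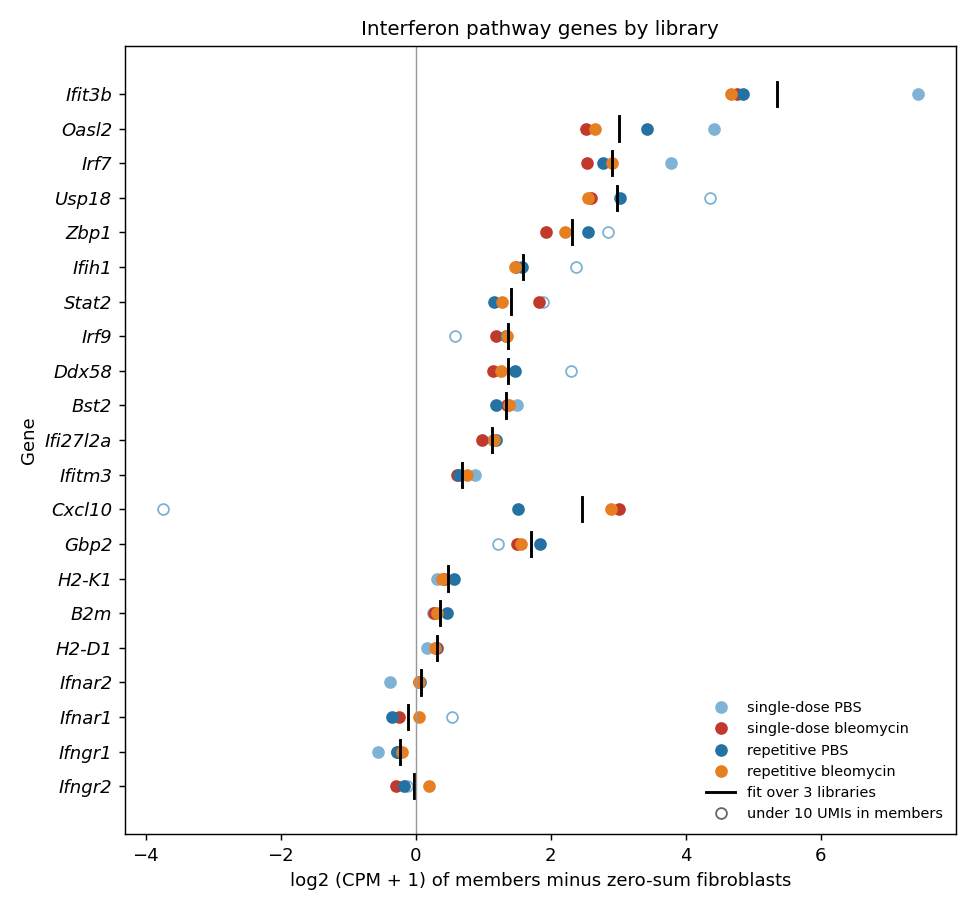
Difference in log2(CPM + 1) between interferon-responding FBs (members) and zero-sum FBs for 21 pathway genes, 1 point per lung library, open where the members held under 10 UMIs of the gene, with a bar at the log2 difference fitted over 3 libraries. The points of Irf7, Usp18 and Oasl2 lie above 0 in all 4 libraries, those of Ifnar1, Ifnar2, Ifngr1 and Ifngr2 lie around 0, and the Cxcl10 point of single-dose PBS stands for 0 UMIs in 9 cells.

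Genes that restrain the response were higher in 3 of 9 tested genes. Usp18, which removes Isg15 from proteins and dampens the type I receptor, stood at 45.3 CPM against 6.65 after single-dose bleomycin, 32.8 against 3.16 after repetitive PBS and 38.6 against 5.79 after repetitive bleomycin (log2 difference 2.98 ± 0.18, adjusted p = 6.24e-05). Adar, which edits double-stranded RNA, was higher by 1.30 ± 0.15 (adjusted p = 0.00259) and Samhd1, which degrades nucleotides, by 0.57 ± 0.11 (adjusted p = 0.0363). Socs3 differed by 0.04 (adjusted p = 0.982).

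The genes that favour interferon gamma were higher in 16 of 22 tested genes of 27 listed, with a median log2 difference of 1.72. Gbp2, a guanylate-binding protein, stood at 70.8 CPM against 24.3 after single-dose bleomycin, 113.0 against 30.8 after repetitive PBS and 93.7 against 31.2 after repetitive bleomycin (log2 difference 1.71 ± 0.10, adjusted p = 6.24e-05). Gbp6 was higher by 2.95 ± 0.15 (adjusted p = 3.59e-05) and Gbp4 by 3.92 ± 0.62 (adjusted p = 0.0137), although Gbp4 did not exceed 8.31 CPM in these cells. The guanylate-binding proteins share sequence with each other, so single values within the family are uncertain. Among the immunity-related GTPases, Igtp was higher by 2.35 ± 0.17, Irgm1 by 1.96 ± 0.13 and Iigp1 by 1.62 ± 0.11. Iigp1 stood at 312.5 CPM against 133.4, 318.0 against 94.9 and 680.8 against 200.3 in the fitted libraries.

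Class I antigen presentation was higher in 15 of 19 tested genes and lower in none, with a median log2 difference of 0.67. Differences in the presenting molecules were small. B2m, the shared light chain, stood at 3615 CPM against 3006 after single-dose bleomycin, 1263 against 916 after repetitive PBS and 1490 against 1199 after repetitive bleomycin (log2 difference 0.37 ± 0.06, adjusted p = 0.0209). H2-K1 was higher by 0.48 ± 0.07 (adjusted p = 0.0115) and H2-D1 by 0.32 ± 0.06 (adjusted p = 0.0417). The peptide transporter gene Tap1 was higher by 1.21 ± 0.13 (adjusted p = 0.00148), the immunoproteasome subunit Psmb8 by 1.10 ± 0.08 (adjusted p = 0.000166), and Nlrc5, the transactivator of class I genes, by 2.16 ± 0.40 (adjusted p = 0.0356). Classical and nonclassical H2 genes also share sequence, and values within that family carry the same uncertainty. When barcodes with a UMI of another cell type were left out, 9 of these genes were still called.

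Class II genes did not follow. Cd74, the invariant chain, stood at 63.9 CPM in interferon-responding FBs against 153.1 after single-dose bleomycin, 15.2 against 6.18 after repetitive PBS and 73.2 against 80.7 after repetitive bleomycin (log2 difference -0.33, adjusted p = 0.78). H2-Aa, H2-Ab1 and H2-Eb1 differed by -0.995, -0.87 and -1.17 with adjusted p = 0.239, 0.416 and 0.152, and all 3 were called lower (-1.36, -1.34 and -1.69, adjusted p = 0.00153, 0.00337 and 0.00313) after barcodes with mesothelial markers were left out, an alternative chosen after the data were seen. None of the 3 was called against depth-matched cells (-1.18, -0.88 and -1.15, adjusted p = 0.145, 0.459 and 0.108). Single cells decided the Cd74 levels, since 1 barcode held 21 of its 31 UMIs after repetitive PBS and 1 held 179 of 326 after repetitive bleomycin. The summed macrophage markers, described below, were lower in interferon-responding FBs of all 4 libraries. The part of macrophage RNA in these values was not tested.

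Chemokines and cytokines were higher in 5 of 18 tested genes of 20 listed. Cxcl10, which draws T cells through CXCR3, stood at 280.9 CPM against 34.0 after single-dose bleomycin, 330.8 against 115.6 after repetitive PBS and 604.6 against 80.9 after repetitive bleomycin (log2 difference 2.46 ± 0.26, adjusted p = 0.00136), and at 0 UMIs in the 9 cells after single-dose PBS. It was unevenly spread, with a UMI in 30 of 92, 38 of 145 and 74 of 257 cells, and the 5 cells with most Cxcl10 held 57.0%, 52.5% and 48.1% of its UMIs in these libraries. Cxcl9, which binds the same receptor, was higher by 1.72 ± 0.27 (adjusted p = 0.0126), but its level in interferon-responding FBs was 42.7 CPM after repetitive bleomycin and 0.979 after repetitive PBS. In the repetitive bleomycin library 1 barcode held 106 of its 190 UMIs and 5 held 95.3%, and 1 barcode held 10 of its 13 UMIs after single-dose bleomycin. Il6, the inflammatory cytokine, and Ccl2, which draws monocytes, were both higher by 1.19 (adjusted p = 0.00148 and 0.00207). Ccl7 was higher by 1.13 (adjusted p = 0.0037), and by 0.72 against depth-matched cells, which no longer passed the test (adjusted p = 0.223).

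**Figure D4:**
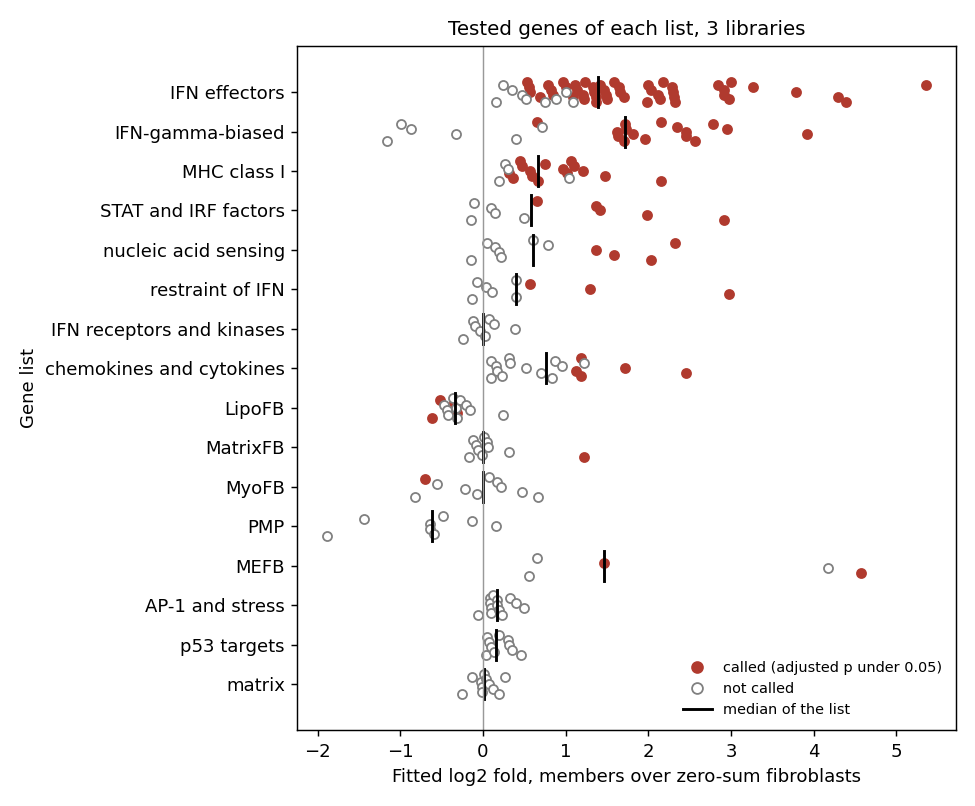
Fitted log2 difference between interferon-responding FBs (members) and zero-sum FBs for each tested gene of 16 lists, filled where the gene was called at an adjusted p under 0.05, with a bar at the median of each list. The medians of the antiviral effectors (1.39), interferon gamma-biased genes (1.72) and class I genes (0.67) lie above 0, and those of the receptors and kinases (-0.00) and the matrix genes (0.02) near it.

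Named FB populations of the mouse lung were then examined through their marker lists, which include markers that the study chose on these libraries and which are therefore no independent evidence. MatrixFB markers had a median log2 difference of 0.00, and of 10 tested only Ly6a was higher, at 481.5 CPM against 241 after single-dose bleomycin, 382 against 106.5 after repetitive PBS and 427 against 245 after repetitive bleomycin (log2 difference 1.23 ± 0.17, adjusted p = 0.00759). The summed MatrixFB level was 6284 against 6763 CPM after single-dose bleomycin, 7493 against 4992 after repetitive PBS and 7411 against 8376 after repetitive bleomycin, so its direction differed between libraries. Against depth-matched cells, at 5306, 5647 and 6889 CPM, it was higher in these 3. Of the 10 MatrixFB genes 2 were called higher against those cells, with a median of 0.23. Over all 9761 genes tested against depth-matched cells, 154 were higher and 30 lower. When all 4 libraries were fitted, 201 of 10575 genes were higher and 75 lower. Ly6a encodes the surface protein Sca-1 and is itself induced by interferons in other cells. Col14a1, a MatrixFB collagen, differed by -0.09 (adjusted p = 0.928).

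LipoFB markers were lower in 4 of 14 genes, with a median of -0.34, while 1 of 14 was lower against depth-matched cells, with a median of -0.26, and 7 of 14 when all 4 libraries were fitted, with a median of -0.36. Inmt, a methyltransferase abundant in LipoFBs, stood at 1155 CPM against 1559 after single-dose bleomycin, 3930 against 4708 after repetitive PBS and 1099 against 1368 after repetitive bleomycin (log2 difference -0.32 ± 0.06, adjusted p = 0.0342), and it missed the threshold after matching (adjusted p = 0.48). Tcf21, the LipoFB transcription factor, differed by -0.44 (adjusted p = 0.0906). The MyoFB list had 1 of 10 genes lower, the small proteoglycan Aspn, and a median of 0.00. Against depth-matched cells Cthrc1, a secreted marker of fibrotic FBs, was also lower, by -1.44 (adjusted p = 0.0092). No gene of 8 proliferating mesenchymal progenitor (PMP) markers, 11 matrix genes, 13 AP-1 and stress genes or 10 p53 targets passed the test in either direction.

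Spp1, the MyoFB-associated osteopontin gene, had no steady direction. It stood at 7123 CPM in interferon-responding FBs against 2646 after single-dose bleomycin and at 796 against 1588 after repetitive bleomycin, and was almost absent from both PBS libraries. A few cells carried these levels, since 5 of 92 held 87.4% of its UMIs after single-dose bleomycin and 5 of 257 held 96.8% after repetitive bleomycin. Its log2 difference was 0.23 (adjusted p = 0.931), and -0.98 without the single-dose bleomycin library.

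Mesothelial markers were found in a few of the cells. At least 3 UMIs of Msln, Upk3b, Lrrn4 and Wt1 were found in 0 of 9, 6 of 92 (6.52%), 3 of 145 (2.07%) and 4 of 257 (1.56%) interferon-responding FBs, against 0%, 3.01%, 0.407% and 0.563% of zero-sum FBs, in the order of the libraries above. With a limit of 1 UMI the shares were 7.61% against 7.12% after single-dose bleomycin, 3.45% against 0.755% after repetitive PBS and 1.95% against 1.48% after repetitive bleomycin, and at either limit the exact intervals overlapped in both bleomycin libraries. Of 5 tested genes of the mesothelial FB (MEFB) list 2 were higher, with a median of 1.47, and 1 when all 4 libraries were fitted. Against depth-matched cells 3 of 4 tested genes were higher, with a median of 1.97, beside 154 of all 9761 genes tested. Upk3b, a surface protein of mesothelium, was higher by 4.57 (adjusted p = 0.00914) and Wt1, its transcription factor, by 1.47 (adjusted p = 0.00769). After repetitive bleomycin 1 cell held 31 of 33 Upk3b UMIs and 1 held 49 of 79 Wt1 UMIs. After barcodes with any UMI of these 4 markers were left out, an alternative chosen after the data were seen, the median of the effector list was 1.40. That choice removes the UMIs of these 4 markers by design, so their own calls cannot be read from it.

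Genes on no list supplied 71 of the 156 higher genes, and the 10 with the largest log2 difference were Krt19, Pkhd1l1, Fgf23, Hdc, Aqp5, Slfn9, Cxadr, Gbp8, AW011738 and Gm4841. Krt19, an epithelial and mesothelial keratin, led at 5.07 ± 0.57 (adjusted p = 0.00214), but its UMIs came from 6, 3 and 4 cells of the fitted libraries. It fell under the count filter once the mesothelial marker barcodes were left out, as did Pkhd1l1, Hdc, Aqp5 and Cxadr. The other five were still called in that fit, between 2.23 for Gm4841 and 3.75 for Fgf23, the gene of a phosphate-regulating hormone. Fgf23 was held by 1, 2 and 14 cells of the fitted libraries, with 29.2 CPM against 3.56 after repetitive bleomycin. Slfn9 belongs to the interferon-inducible Schlafen family and Gbp8 to the guanylate-binding proteins, and they were higher by 3.02 ± 0.38 (adjusted p = 0.00408) and 2.68 ± 0.35 (adjusted p = 0.0047).

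Saa3 and Lcn2, acute-phase protein genes chosen here after their values were seen, were also higher. Saa3, a serum amyloid gene, stood at 830.5 CPM against 245.6 after single-dose bleomycin, 7.34 against 2.77 after repetitive PBS and 815.1 against 182.7 after repetitive bleomycin (log2 difference 1.93 ± 0.12, adjusted p = 6.24e-05). Lcn2, which binds bacterial siderophores, was higher by 1.69 ± 0.25 (adjusted p = 0.0109), with 256.3 CPM against 53 after repetitive bleomycin. Both were at 0 UMIs in the 9 cells after single-dose PBS. Cd274, the immune checkpoint ligand PD-L1, was higher by 1.56 ± 0.31 (adjusted p = 0.0477) and missed the threshold against depth-matched cells (adjusted p = 0.149).

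Of the 33 lower genes, 9 were also lower against depth-matched cells: Aspn, Colq, Cpm, Fam13a, Fat3, Grem1, Mapt, Scube2 and Slc7a10. Slc7a10, an amino acid transporter gene, stood at 14.4 CPM against 29.7 after single-dose bleomycin, 29.9 against 74.4 after repetitive PBS and 5.84 against 15.2 after repetitive bleomycin (log2 difference -1.26 ± 0.13, adjusted p = 0.00141). In the 9 cells of the single-dose PBS library it stood at 144.4 against 121.9 CPM. Grem1, a BMP antagonist, had 0 UMIs in both PBS libraries and stood at 15.1 CPM against 35.02 and 15.5 against 29.4 after single-dose and repetitive bleomycin (log2 difference -1.01, adjusted p = 0.0429). Few cells carried it, since 1 interferon-responding FB held 12 of its 22 UMIs after single-dose bleomycin.

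The other lower genes included markers of other cells, whose difference did not hold against depth-matched FBs. Lyz2, a lysozyme of macrophages, differed by -2.01 (adjusted p = 0.00778) and Sftpc, the surfactant gene of alveolar epithelium, by -2.09 (adjusted p = 0.000669). Against depth-matched zero-sum FBs the differences were -0.15 (adjusted p = 0.864) and -0.10 (adjusted p = 0.919).

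Markers of other cell types were compared as summed levels, with zero-sum FBs and with their depth-matched subset. Summed over 8 macrophage markers they held 14.4, 103, 9.30 and 31.0 CPM in the order of the libraries above, against 142.8, 177.4, 19.6 and 173.6 CPM in zero-sum FBs and 43.3, 119.6, 10.8 and 33.4 CPM in depth-matched ones. The gap was thus small against cells of like depth in the 3 fitted libraries. Neutrophil and erythroid markers did not exceed 2.06 CPM in any library, and T and NK cell markers 28.9 CPM, which is 2 UMIs. Endothelial markers stood at 26.4 CPM after repetitive PBS, against 11.9 in zero-sum and 7.35 in depth-matched FBs. After single-dose PBS, single-dose bleomycin and repetitive bleomycin they stood at 0, 10.99 and 7.19 CPM, against 13.37, 13.55 and 15.42 in zero-sum FBs. The 4 markers of plasmacytoid dendritic cells summed to 0, 4.81, 0 and 23.1 CPM against 0.938, 6.65, 0.254 and 3.73 in zero-sum FBs. All 103 UMIs after repetitive bleomycin were Ly6d, 84 of them in 1 barcode, and 1 gene of this list was called higher when all 4 libraries were fitted. Siglech, the most specific of the 4, had 0 UMIs in interferon-responding FBs of every library. Epithelial markers summed to 851.7, 94.8, 37.7 and 221.2 CPM against 811.7, 272, 139.1 and 132 in zero-sum FBs and 692.2, 85.0, 33.8 and 58.4 in depth-matched ones, above which they lay in every library. Scgb1a1, the secretoglobin of club cells, was found in 97.5% of zero-sum FBs after single-dose PBS, and 1 interferon-responding barcode held 759 of its 875 UMIs after repetitive bleomycin. The highest sum was that of the B and plasma cell list, at 3528 CPM against 1644 in zero-sum and 2763 in depth-matched FBs after repetitive bleomycin and at most 15.8 CPM elsewhere. Igkc, the kappa light chain, was found in 69 of the 257 cells there, but 1 barcode held 68.1% of its 13540 UMIs and 5 held 99.4%. Iglc2, the lambda light chain, was lower in interferon-responding FBs there, at 25.8 CPM against 431.2 (log2 difference -3.99, adjusted p = 3.59e-05). Its level in depth-matched zero-sum FBs there was 14.6 CPM, and it had too few counts to be tested against them.

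The difference between the classes was last compared between bleomycin and PBS libraries, by an interaction term over all 4 lung libraries. The term is signed, as the log2 of interferon-responding over zero-sum FBs after bleomycin minus that after PBS. A negative term can thus be a smaller gap or a gap in the other direction. Of 10575 genes tested, 21 (0.199%) were called with a positive term and 123 (1.16%) with a negative one. The calls were made by edgeR's quasi-likelihood test with Benjamini-Hochberg adjustment. This comparison leans on the 9 interferon-responding FBs of the single-dose PBS library, which held 69274 UMIs in all, and 121 of the 144 called genes had under 10 UMIs there. Against depth-matched cells 12 and 16 genes were called, and a DESeq2 test called 0 and 3. With the PBS and bleomycin libraries of each experiment paired, a replicate block chosen after the data were seen, 14 and 64 genes were called, so the number of calls depended on the method.

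Irf7 and Bst2 were not called, with interactions of -0.25 and 0.16 (adjusted p = 1 for both). Cxcl10 had a larger difference between the classes after bleomycin, by 1.49 (adjusted p = 1.25e-08), and by 1.75 against depth-matched cells (adjusted p = 4.97e-07), but it was not called by DESeq2 (1.95, adjusted p = 1). With 0 UMIs in the interferon-responding FBs of single-dose PBS, its value there depends on the prior count, and the PBS side rests on the repetitive library. Oasl2 had a smaller one, by -1.06 (adjusted p = 0.00245), also not called by DESeq2 (adjusted p = 1) or with the experiments paired (-1.12, adjusted p = 0.0642). Ly6a differed by -1.06 (adjusted p = 2.24e-05), and by 0.42 against depth-matched cells (adjusted p = 1). Its 60 UMIs in interferon-responding FBs after single-dose PBS came from 2 of the 9 cells, 37 of them from 1.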

How the data were processed

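The authors sorted GFP+ lung cells, made 10x Genomics 3′ libraries and processed them with Cell Ranger 3.0.1 and GRCm38, per the labels and the study's methods. The methods name v2 chemistry and Gencode M17. The deposited files list 30828 and 30830 genes for the single-dose libraries and 32285 for the repetitive ones, so 1 annotation may not apply to all. The deposited values are UMI counts per gene and barcode, used as deposited. Members and gene lists were chosen with earlier results of these data known.

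Counts were read with Python 3.11.15. Barcodes were selected by the limits in the text, and 20491 genes shared by the 4 lung tables were summed per class and library. The sums were filtered by filterByExpr, scaled by TMM and fitted in edgeR 4.0.16 (R 4.3.3, quasi-likelihood, adjusted p under 0.05). Libraries with under 10 members were left out of the fit. DESeq2 1.42.0, other limits, no library term, thinning and depth matching were alternatives. Sums were simulated for this comparison, with mean levels and totals taken from the 3 fitted libraries. There 97.9% of genes raised by 2 on the log2 scale and 31.1% of those raised by 1 were called, so smaller differences are often missed. Of 10589 unchanged genes 0.0189% were called. The simulation gave every gene the same fixed dispersion and changed only genes above a count minimum. It did not model genes whose UMIs sit in a few cells, for which these rates may not hold. Named genes were the 3 highest and 3 lowest of each list, a set of pathway genes, the 10 highest and 10 lowest called genes on no list, and the 5 largest interactions in each direction. Other genes that the text names come from the same lists or were chosen after their values were seen. Intervals are 95% exact binomial or Poisson and cover counting error only. Each library pools 3 mice, so p-values measure only the spread between these libraries, not between mice. Barcodes of doubtful identity were handled by the gates and by leaving out those with markers of other cells or over 3 times the median UMIs. Results for 1 of the named genes are not reported here.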

Additional observations from a re-analysis of the deposited data

Results flagged for a closer look

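Genes whose difference between interferon-responding and zero-sum FBs itself differed between bleomycin and PBS libraries are given here by their interaction log2 values from edgeR's quasi-likelihood test. The 5 largest in the negative direction were Ptx3 (-4.36), Tmem108 (-4.06), Fabp4 (-4.00), Celf4 (-3.85) and Gatm (-3.27), and the 5 largest in the positive direction were Tspan8 (9.43), Igkc (8.66), Aqp1 (3.99), Kcnb2 (3.95) and Cemip (3.23). Tspan8 and Igkc had 0 UMIs in interferon-responding FBs of both PBS libraries, so their values depend on the prior count of the fit and give no size, and Aqp1, Kcnb2 and Cemip had 3, 2 and 2 UMIs there. In the repetitive bleomycin library 138 of 228 Cemip UMIs came from 1 cell. Ptx3, which encodes a pentraxin of innate immunity, was also called against depth-matched cells (-3.41, adjusted p = 7.79e-07) and by DESeq2 (-4.28, adjusted p = 0.00481), yet all its UMIs in interferon-responding FBs of the repetitive PBS library came from 4 cells. In that class and library 1 cell held all 9 UMIs of Tmem108, 1 all 7 of Fabp4 and 1 held 25 of 28 of Celf4, and 2 cells held the 10 of Gatm, while none of the 5 had a UMI in interferon-responding FBs after single-dose PBS. Igkc rested on 1 barcode of the repetitive bleomycin library that held 68.1% of its UMIs there. Of the genes fixed by name, Cxcl10 (1.49), Oasl2 (-1.06) and Col14a1 (-0.84) were called, and Col14a1 not against depth-matched cells (-0.11, adjusted p = 1). With the PBS and bleomycin libraries of each experiment paired, Fabp4 (-2.62, adjusted p = 0.299), Oasl2 (-1.12, adjusted p = 0.0642) and Col14a1 (-0.84, adjusted p = 0.204) were not called.

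The organoid libraries, grown from GFP+ FBs of PBS- or bleomycin-dosed mice with alveolar epithelial cells, were outside the comparisons. Their FB barcodes, taken by the same gates, included interferon-responding ones. Thinned to 2000 UMIs, a limit of 2 UMIs gave 4.24% with normal FBs and 4.44% with fibrogenic FBs. A limit of 5 UMIs gave 0.747% and 0.574% after the same thinning. Unthinned, the shares were 20.1% and 22.1%, with a median of 63744 and 79225 UMIs in the interferon-responding barcodes. With barcodes that held a marker of another cell type left out, 29 and 50 organoid barcodes remained and 0 were interferon-responding, which allows shares of up to 11.9% and 7.11% (exact 95% interval), so that these shares are of barcodes that nearly all carried RNA of another cell type.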

How the results depend on the processing

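The share of interferon-responding FBs moved with the limit. With at least 3 UMIs of the 4 genes it was 4.04% after single-dose PBS, 20.8% after single-dose bleomycin, 6.01% after repetitive PBS and 8.90% after repetitive bleomycin, and with at least 10 it was 0.357%, 5.52%, 1.06% and 2.37%. Thinned to 2000 UMIs, a limit of 2 gave 6.90%, 1.96% and 3.54% in the last 3 libraries, and a limit of 5 gave 0.357%, 2.01%, 0.255% and 0.852% in all 4. Barcodes with other cell type markers left out gave 6.25% after single-dose and 4.20% after repetitive bleomycin. In the latter library a minimum of 4000 UMIs gave 6.50%, one of 1000 gave 3.55%, and leaving out barcodes over 3 times the median gave 4.27%. The 156 higher and 33 lower genes became 384 and 212 with no filter on low counts, and 1 and 0 with no library term, where 116 genes had an unadjusted p under 0.05. Then 1 effector, 0 interferon gamma-biased and 0 class I genes were called higher. Leaving out 1 library gave 203 to 424 higher and 54 to 131 lower genes, and without the single-dose bleomycin library the counts were 424 and 131, without repetitive PBS 234 and 106, and without repetitive bleomycin 203 and 54. Of the 156 and 33 genes, these fits still called 155 and 31, 151 and 28, and 128 and 21 in the same order. Lower genes numbered 14 with other cell type markers left out, and only 4 of them were among the 33. In that fit 115 genes were called higher, 90 of them among the 156, and 9 class I genes were called higher. Against depth-matched cells 154 genes were higher and 30 lower, of which 119 and 9 were main calls. With all 4 libraries, a choice made after seeing the data, 75 were lower, 31 of them among the 33. The interaction gave 0 positive and 3 negative calls with DESeq2, and 12 and 16 against depth-matched cells, where 19 of the 144 genes were still called. With the experiment as a replicate block that pairs each PBS library with its bleomycin library, it gave 14 and 64. In that fit 76 of the 144 genes were still called. Spp1 reversed, to -2.47 with other cell type markers left out, and ranged from -0.98 without the single-dose bleomycin library to 1.41 without repetitive bleomycin. The cause was not tested. Over the 26 tested genes that the naming rule gave by name, and not the other named genes, 323 of 358 alternative values kept direction and side of the threshold, 26 were weaker (18 of them with no library term), 7 stronger and 2 reversed. The class comparison itself is paired within libraries by the library term.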
